A study of Mus musculus with 12 samples.

Results

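Keratin, cornified envelope and serpin B genes were followed in hippocampal CA1 tissue, where few of these genes are normally transcribed. The members were all genes whose symbols start with Krt, Lce, Sprr, Serpinb, Flg, Dsg, Crnn, Rptn or Spink, or with Dsc and a digit, and the genes Lor and Ivl, as far as the table held them. This rule found 167 of 10245 gene symbols. Of these, 104 had a value above 0 in at least 1 library and 63 were listed at 0 in every library. RNA-Seq was performed on CA1 of 6 Control and 6 Tip60 cKO mice, all male, of the C57BL/6N strain, given tamoxifen at 2 months of age and analysed at day 10 after the last injection. Both groups carried the floxed Tip60 gene, which encodes a lysine acetyltransferase of histones and other proteins, and only Tip60 cKO mice also carried the tamoxifen-inducible CaMKCreER T2 driver. The driver acts in excitatory forebrain neurons, so glia and neuronal progenitors of the pooled dorsal CA1 tissue of a mouse still had Tip60. An effect of active Cre itself and one of the Tip60 deletion cannot be told apart in this design. Tip60 itself was not analysed here.

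Keratins are intermediate filament proteins of epithelia, in which a type I keratin pairs with a type II keratin. Late cornified envelope (Lce), small proline-rich (Sprr) and involucrin proteins are cross-linked beneath the membrane of dying keratinocytes into the cornified envelope, and their genes lie side by side in the epidermal differentiation complex. Desmosomal cadherins hold such cells together, clade B serpins are mostly intracellular protease inhibitors, and Spink genes encode Kazal-type inhibitors of secreted proteases. Some members are also known in neurons: Serpinb2 is induced by activity in hippocampal neurons, and Sprr1a is induced in sensory neurons after axon injury.

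Values are FPKM, fragments per kilobase of transcript and per M mapped reads (M, mega), as deposited. The libraries held an estimated 30.8 to 37.2 M reads, so that many members were measured from a few reads. Exact 0 values also occurred in some abundant genes, where they can be failed estimates, and a member at 0 is therefore described as listed at 0. Choroid plexus markers stood out in cKO replicate 1, in which transthyretin (Ttr) was at 201 FPKM, while the summed markers were at most 1.25 FPKM in the other cKO libraries. Only Sst, Npy and Slc32a1 of 7 listed interneuron markers were in the table, and these were higher by both tests. Their sum was 376 to 439 FPKM in Control and 753 to 819 FPKM in cKO libraries and was mostly Sst. The ratio of the group means was 1.94 for Sst, 2.17 for Npy and only 1.25 for Slc32a1. Of the CA1 pyramidal neuron markers only Pou3f1 was in the table, at 25.8 to 31.7 FPKM in Control and 48.1 to 62.5 FPKM in cKO libraries. Summed meninges markers were 21 to 30.4 FPKM in Control and 30.2 to 39.2 FPKM in cKO libraries. Dcn and Mgp were higher by both tests, while Lum, Ogn, Slc22a6 and Igf2 were called by neither. Of 6 microglia markers C1qa, C1qc and Tyrobp were higher and P2ry13 was lower by both tests, and Tmem119 was lower by the permutation test, with sums of 106.9 to 124.9 FPKM and 117.7 to 153.5 FPKM. The part of these shifts in the results was not tested. In bulk tissue, fewer cells of a type and less RNA per cell cannot be told apart.

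Members of the Lce and Sprr families, the type II keratins Krt2 and Krt6b and the serpin Serpinb2 were higher in cKO libraries, and several of them were listed at 0 in all Control libraries. In the 2415 genes that averaged 0.5 FPKM or more, limma on log2(FPKM + 1) called 19.9% higher and 6.5% lower in cKO at an adjusted p below 0.05 and a fold above 1.2. Only 4 members were abundant enough for this test. Lce1i, Krt2 and Sprr2g were called higher and Serpinb1a was not called, so 3 of these 4 were called against 19.9% of all tested genes. No member was called lower, and at an unadjusted p below 0.05 none was lower by limma either. Those 3 reached this test only through their cKO level, so the count of 3 of 4 does not describe the members in general.

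To include the low members, an exact two-sided permutation test of 6 against 6 libraries was applied to the mean FPKM of every gene with a value above 0, with adjustment over all 7256 genes. By this test 20 of 104 members were higher in cKO, which is 19.2% beside 17.9% of all genes. The share of members was thus close to the background. Among genes with a mean under 0.5 FPKM, where most members lie, 17 of 100 members (17%) were higher beside 9.54% of genes. No member was called lower beside 4.45% of genes, and 1 member, the inner root sheath keratin Krt25, was lower at an unadjusted p below 0.05. Of all 104 members above 0, 86 had a higher mean in cKO (82.7%) beside 71% of genes. For 42 of these 86 this was fixed, since they were listed at 0 in all Control libraries. Likewise 8 members at 0 in all cKO libraries could only be lower. The median difference on the log2(FPKM + 0.1) scale was 0.10 for the members and 0.08 for all genes.

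Some members had a value of 0 in all 6 Control libraries and a value above 0 in all 6 cKO libraries. This was found in 9 of 104 members (8.65%) and in 22 of 7256 genes (0.303%), so that at least 13 genes outside these families shared the pattern. The 46 genes set aside for 0 values, none of them a member, could not enter this count or that of the reverse pattern. The counts over all genes can therefore be too low. The 9 members were Lce1c, Lce1e, Lce1f, Lce1g, Lce1h, Sprr1a, Sprr2k, Serpinb2 and Krt42, and in Lce1c, Lce1e and Lce1h some cKO values correspond to less than 1 read. The reverse pattern was met by no member and by 1 gene of the table (0.0138%). In 17 members every cKO library lay above every Control library, beside 12.3% of genes, and no member had the opposite order, beside 2.96% of genes. Among genes with a mean under 0.5 FPKM, 14 of 100 members had all cKO libraries above all Control libraries, beside 5.93% of genes.

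**Figure D1:**
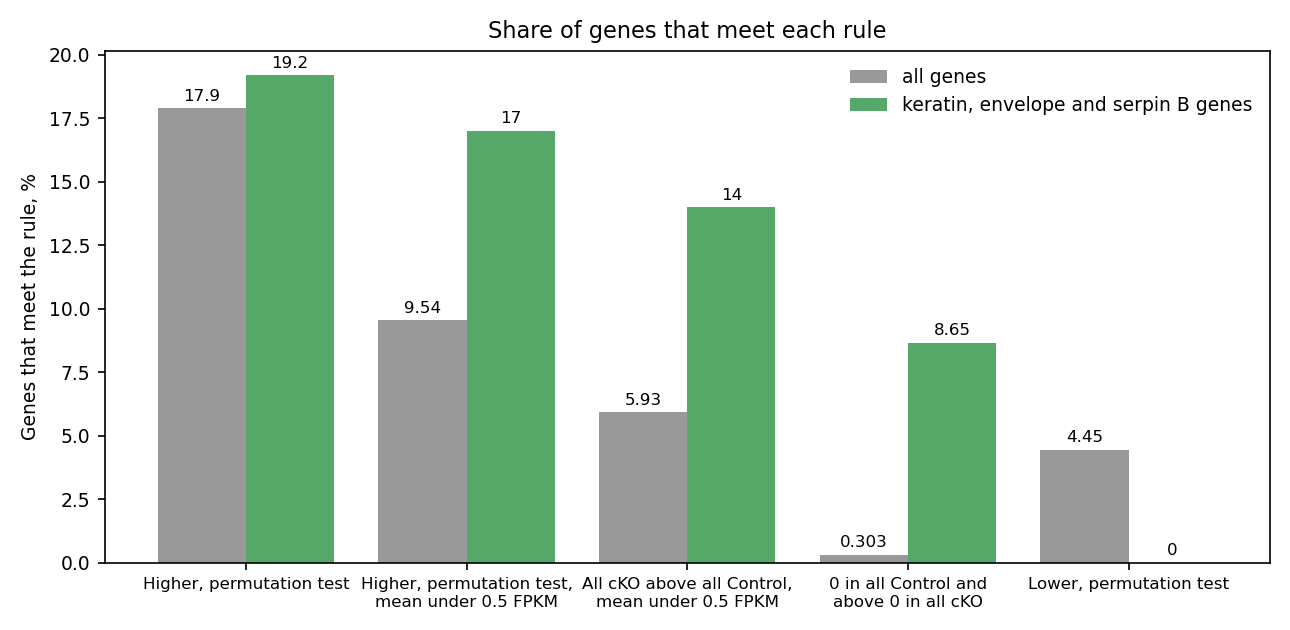
Share of genes, in percent, that met each of 5 rules, for all genes with a value above 0 (grey) and for the keratin, cornified envelope and serpin B genes (green). The bars are close for the permutation test over all levels (17.9% and 19.2%) and far apart for genes at 0 in all Control and above 0 in all cKO libraries (0.303% and 8.65%). The 8.65% stands for 9 members, of which 5 are Lce1 copies that may share reads. In Lce1c, Lce1e and Lce1h some cKO values were under 1 read. The 0.303% can be too low, since genes set aside for 0 values were not counted.

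Lce genes were listed above 0 almost only in cKO libraries. They encode small cysteine- and glycine-rich proteins that are laid down late in cornification. Of 18 Lce genes, 17 had a value above 0, and the mean of each of these 17 was higher in cKO. In the Control libraries 16 of the 17 were listed at 0 throughout. These 16 could have a value above 0 only in cKO, so their higher mean was fixed and the count of 17 is no separate result. No cKO value of Lce1b, Lce1d, Lce1k or Lce3b exceeded 0.543 reads. The sum over all Lce genes was 0 to 0.0511 FPKM in Control and 1.59 to 4.02 FPKM in cKO libraries, without overlap. Lce1 genes contributed 1.45 to 3.47 FPKM of it in cKO, and Lce3 genes, all at 0 in Control, 0.107 to 0.542 FPKM.

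The Lce1 genes form a family of closely related copies, whose reads may be split between them. Their transcripts were not compared here, but the 250 bases upstream of the annotated start of Lce1g and Lce1i (RefSeq, GRCm38.p6), the most abundant pair, show how alike their upstream sequences are. They lie on the minus strand at chr3:92752339-92752588 and chr3:92778900-92779149, 214 of 250 bases (85.6%) are identical without gaps, and capitals mark the bases that differ.
Lce1g: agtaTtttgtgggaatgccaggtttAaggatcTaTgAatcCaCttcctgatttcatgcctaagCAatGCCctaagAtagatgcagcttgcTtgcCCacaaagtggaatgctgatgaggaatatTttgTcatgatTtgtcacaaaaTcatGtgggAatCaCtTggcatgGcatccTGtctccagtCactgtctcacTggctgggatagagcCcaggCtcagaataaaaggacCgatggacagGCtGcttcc
Lce1i: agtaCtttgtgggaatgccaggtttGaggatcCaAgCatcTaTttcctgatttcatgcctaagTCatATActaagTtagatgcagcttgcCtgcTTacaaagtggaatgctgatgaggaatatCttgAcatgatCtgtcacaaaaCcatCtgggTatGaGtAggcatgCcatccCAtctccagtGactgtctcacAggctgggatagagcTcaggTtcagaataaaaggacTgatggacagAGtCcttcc

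Lce1i was the most abundant Lce gene. Its level was 0.994, 0.92, 1.28, 1.4, 1.32 and 1.47 FPKM in cKO replicates 1 to 6, and it was listed at 0 in Control apart from 0.0475 FPKM in replicate 3 and 0.0511 FPKM in replicate 5. All cKO libraries lay far above all Control libraries. Converted with transcript length and depth, this is 23.4 to 35.8 reads in each cKO library and about 1.24 reads in each of the Control libraries with a value. The limma difference was 1.13 ± 0.06 (SE) on the log2(FPKM + 1) scale, with an adjusted p of 1.45e-09. No fold is given, since the Control level rests on so few reads.

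Lce1g and Lce1f came next in level. Lce1g was listed at 0 in all Control libraries and at 0.387, 0.341, 0.51, 0.903, 0.361 and 1.31 FPKM in cKO replicates 1 to 6, from 10.3 to 40.1 reads. Lce1f was also at 0 in all Control libraries and ranged from 0.078 FPKM in replicate 2 to 0.457 FPKM in replicate 6 of cKO, with a median of 0.172 FPKM. For both genes replicate 6 was the highest cKO library. Both passed the exact two-sided permutation test with an adjusted p of 0.0141, which is the value that every gene with the smallest possible p of 0.00216 received.

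Lce1h, Lce1e and Lce1c also passed that test (adjusted p = 0.0141, exact permutation) at far lower levels. Their highest cKO values were 0.12, 0.0704 and 0.0643 FPKM, and their lowest 0.00911, 0.00135 and 0.000287 FPKM. The lowest values correspond to less than 1 read, and how such values arose was not tested. Of 74 Lce values above 0 from genes with 1 annotated transcript, 31 (41.9%) were under 0.5 reads, beside 12.2% in other members of this kind, among them 6 of 12 values of Ivl. Which Lce1 copy produced these reads is uncertain, and without any 1 of the Control libraries the adjusted p of these 3 genes rose to between 0.079 and 0.192 by the same exact permutation test.

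Lce3c reached a median of 0.144 FPKM in cKO, was at 0 in cKO replicate 2 and at 0 in all Control libraries, and missed the threshold (adjusted p = 0.0614, exact permutation). Lce3f, Lce1a1 and Lce1b had the same adjusted p. The remaining 7 Lce genes had an adjusted p between 0.177 and 1 by this test. Lce6a was listed at 0 in every library.

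Sprr genes encode the proline-rich cross-bridging proteins of the envelope, and 6 of 14 had a value above 0. Their sum was 0.0258 to 0.594 FPKM in Control and 1.4 to 2.64 FPKM in cKO libraries, without overlap. Sprr2g was measured at 0, 0.543, 0.336, 0.107, 0.241 and 0.333 FPKM in Control replicates 1 to 6. In cKO replicates 1 to 6 it was at 1.02, 0.807, 1.07, 1.61, 1.02 and 0.888 FPKM. The groups did not overlap, and replicate 4 was the highest cKO library. Sprr2g was higher by 0.72 ± 0.10 (SE) on the log2(FPKM + 1) scale (limma, adjusted p = 4.34e-05), with a ratio of the group means of 4.11.

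Sprr1a was listed at 0 in all Control libraries and at 0.733, 0.44, 0.383, 0.909, 0.484 and 0.723 FPKM in cKO replicates 1 to 6, from 9.86 to 24.3 reads. Sprr2k was at 0 in Control as well and at 0.0581, 0.118, 0.258, 0.0612, 0.0653 and 0.304 FPKM in cKO, from 1.28 to 6.44 reads. Both passed the exact permutation test (adjusted p = 0.0141). Of the other Sprr genes, Sprr2a2 was above 0 in all 12 libraries and did not pass the test (adjusted p = 0.333, exact permutation). Sprr2b and Sprr3 had values in 2 and 1 Control libraries and none in cKO, and 8 genes of the family were at 0 throughout.

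Promoter windows of Sprr1a and Sprr2k are shown because both genes were at 0 in all Control and above 0 in all cKO libraries and both windows hold a TATA box and AP-1 sites close to the start. They are the 250 bases before the annotated start in RefSeq, GRCm38.p6, at chr3:92485882-92486131 on the minus strand and chr3:92432332-92432581 on the plus strand. Capitals mark TATAAA and TGACTCA or its reverse complement TGAGTCA.
Sprr1a: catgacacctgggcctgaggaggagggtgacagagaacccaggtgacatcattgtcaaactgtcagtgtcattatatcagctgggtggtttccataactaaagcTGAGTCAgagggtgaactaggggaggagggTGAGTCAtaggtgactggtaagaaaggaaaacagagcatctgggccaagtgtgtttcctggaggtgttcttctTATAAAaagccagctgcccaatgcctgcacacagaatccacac
Sprr2k: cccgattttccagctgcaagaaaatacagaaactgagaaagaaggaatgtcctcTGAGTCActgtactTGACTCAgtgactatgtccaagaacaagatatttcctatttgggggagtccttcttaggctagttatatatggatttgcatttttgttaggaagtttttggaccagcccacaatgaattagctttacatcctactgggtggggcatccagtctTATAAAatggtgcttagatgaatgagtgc

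In Sprr1a the AP-1 sites began 146 and 116 bases and the TATA box 43 bases before the start. In Sprr2k the AP-1 sites began 196 and 182 bases and the TATA box 29 bases before it. Read on both strands, TATAAA was in 12.4% of 32851 such windows, TGACTCA in 4.46% and both in 0.721%. Windows were matched for 117 members, 14 of them among the 20 that were higher by the permutation test. TATAAA was in 4 of these 14 and in 63 of the other 103 members, and TGACTCA in 2 of 14 and 13 of 103. Both were also in the windows of Sprr2d, Sprr2e, Sprr2f, Sprr2h and Sprr2i, which were listed at 0 in every library. Sprr2b, with values only in Control libraries, held both as well. Neither was in the windows of Lce1c, Lce1e, Lce1g, Lce1h and Lce1i, which were called higher. The cAMP response element TGACGTCA was in none of the 117 windows beside 1.55% of all windows. The 14 windows held 0 to 6 CG dinucleotides with a median of 1.5, beside a median of 2 in the other 103 members and 6 in all windows. A match of letters is a description of the window and not a measurement of a factor's binding.

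**Figure D2:**
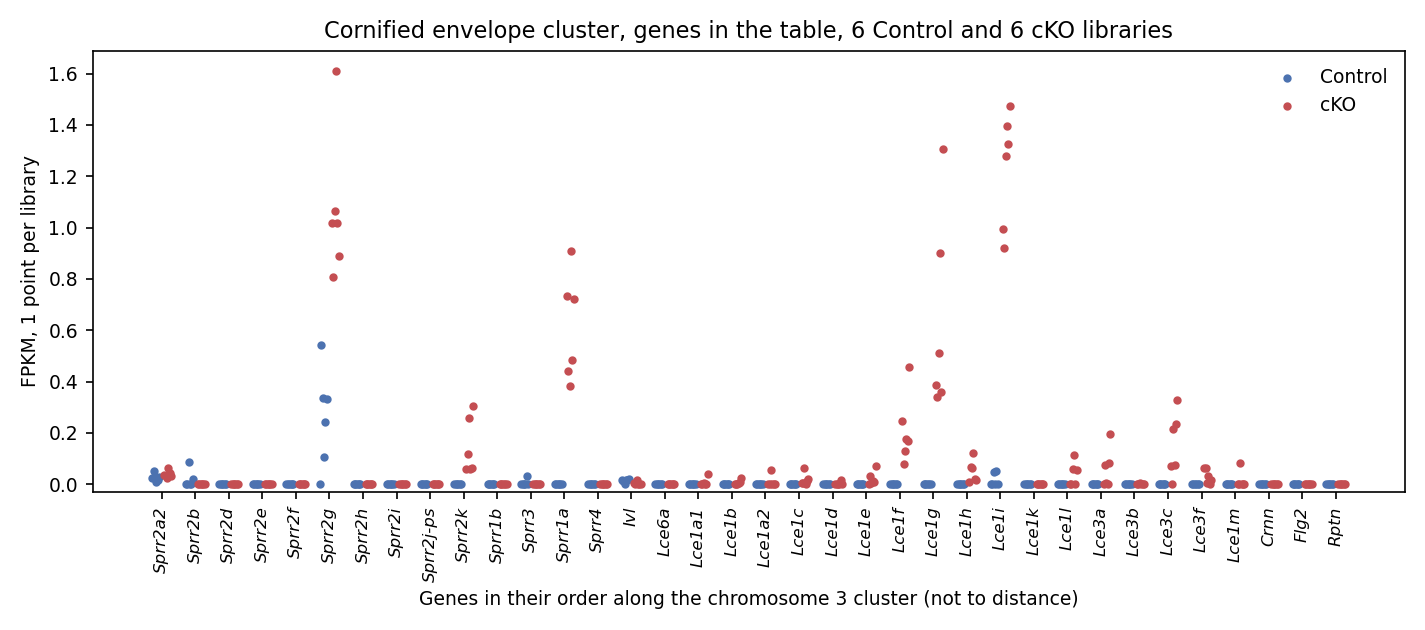
FPKM of each gene of the chromosome 3 envelope cluster in the table, in gene order but not to distance, with 1 point for each of 6 Control (blue) and 6 cKO (red) libraries. High cKO levels are seen at Sprr2g, Sprr2k, Sprr1a, Lce1f, Lce1g, Lce1i and Lce3c, while several Sprr genes, Lce6a, Crnn, Flg2 and Rptn stay at 0.

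Sprr and Lce genes lie in one row on chromosome 3 (gene order from RefSeq, GRCm38.p6), in which the involucrin gene Ivl stands between them. Of 36 members in this row, 22 had a cKO mean above 0 and 9 were higher by the permutation test. Members at 0 in every library were not tested. Among those with a value above 0, 6 of 17 Lce genes and 3 of 6 Sprr genes were higher, beside 17.9% of all genes with a value above 0. Most of these genes had a mean under 0.5 FPKM, where 9.54% of genes were higher. However, 16 of the 17 Lce genes entered the count only through cKO values. Lce1c, Lce1e and Lce1h had some cKO values under 1 read and were not called without any 1 of the Control libraries. Lce1c and the run of Lce1e to Lce1i were called, while Sprr1b, Crnn, Flg2 and Rptn of the same row were among those at 0 in every library. Ivl was lower in most cKO libraries, but its values are at most 1.36 reads in Control and 1.02 reads in cKO, so the direction is uncertain. It was at 0.0145 to 0.0196 FPKM in all Control libraries but replicate 3 (0.000164). In all cKO libraries but replicate 3 (0.0167) it was at 0.000265 to 0.00325 FPKM. The groups overlapped, and Ivl did not pass the test (adjusted p = 0.182, exact permutation).

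Type II keratins, the basic partners of the keratin pair, were higher in sum, at 0.344 to 0.819 FPKM in Control and 1.46 to 2.5 FPKM in cKO libraries. Krt2, a keratin of the upper epidermis, made up most of this sum. It was at 0.212 to 0.432 FPKM with a median of 0.338 in Control and at 1.05 to 1.66 FPKM with a median of 1.11 in cKO libraries. The groups were far apart, at 20.3 to 40.8 reads against 86.3 to 144 reads per library. The mean was 0.327 ± 0.098 (SD, n = 6) in Control and 1.25 ± 0.26 (SD, n = 6) in cKO, a ratio of 3.82. The limma difference was 0.76 ± 0.07 (SE) on the log2(FPKM + 1) scale (adjusted p = 6.11e-07).

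Krt6b, a keratin of stressed and wounded epithelium, was at 0 in all Control libraries but replicate 4 (0.0117 FPKM, about 1 read). In cKO replicates 1 to 6 it was at 0.137, 0.0487, 0.169, 0.307, 0.159 and 0.422 FPKM. Krt78 was lower in level, at 0.00737 to 0.0153 FPKM in Control and 0.0176 to 0.0742 FPKM in cKO libraries. Neither gene overlapped between the groups, and both passed the exact permutation test (adjusted p = 0.0141). Krt78 rests on 1.86 to 8.45 reads per cKO library, and its adjusted p reached up to 0.0542 in that test when Control replicate 1, 3, 4 or 5 was left out. Of 12 type II keratins, 10 had a value above 0 and 7 of these were not called, among them Krt8, Krt7, Krt80 and Krt79.

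Sums over the type I keratins, the acidic partners, at 0.0908 to 0.346 FPKM in Control and 0.243 to 0.66 FPKM in cKO libraries, overlapped between the groups. Krt42 was listed at 0 in all Control libraries and at 0.0211 to 0.113 FPKM in cKO (adjusted p = 0.0141, exact permutation), from 1 to 6.11 reads. Krt19, a keratin of simple epithelia, was at 0 in Control replicates 1 to 4, at 0.023 and 0.0424 FPKM in replicates 5 and 6 and at 0.0228 to 0.0959 FPKM in cKO, with overlap (adjusted p = 0.0321, exact permutation). It did not pass under the other scalings (0.0801 with median-ratio and 0.065 with upper-quartile scaling, exact permutation). Krt15, the highest type I keratin by mean, was at 0 to 0.189 FPKM in Control and 0 to 0.238 FPKM in cKO. Krt25, a keratin of the inner root sheath, was at 0.0168 to 0.0518 FPKM in Control and 0 to 0.0178 FPKM in cKO (adjusted p = 0.0683, exact permutation).

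Krt8 and Krt18 form the keratin pair of simple epithelia. In cKO replicate 1, the library with the high choroid plexus markers, Krt18 was at 0.317 FPKM and Krt8 at 0.189 FPKM. Krt8 was nearly as high in Control replicate 6 (0.17 FPKM) and cKO replicate 6 (0.149 FPKM), so only Krt18 stood apart there. The other cKO libraries held 0 to 0.0664 FPKM of Krt18 beside 0 to 0.0622 FPKM in Control. Neither gene passed the exact permutation test (adjusted p = 0.347 for Krt18 and 1 for Krt8).

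**Figure D3:**
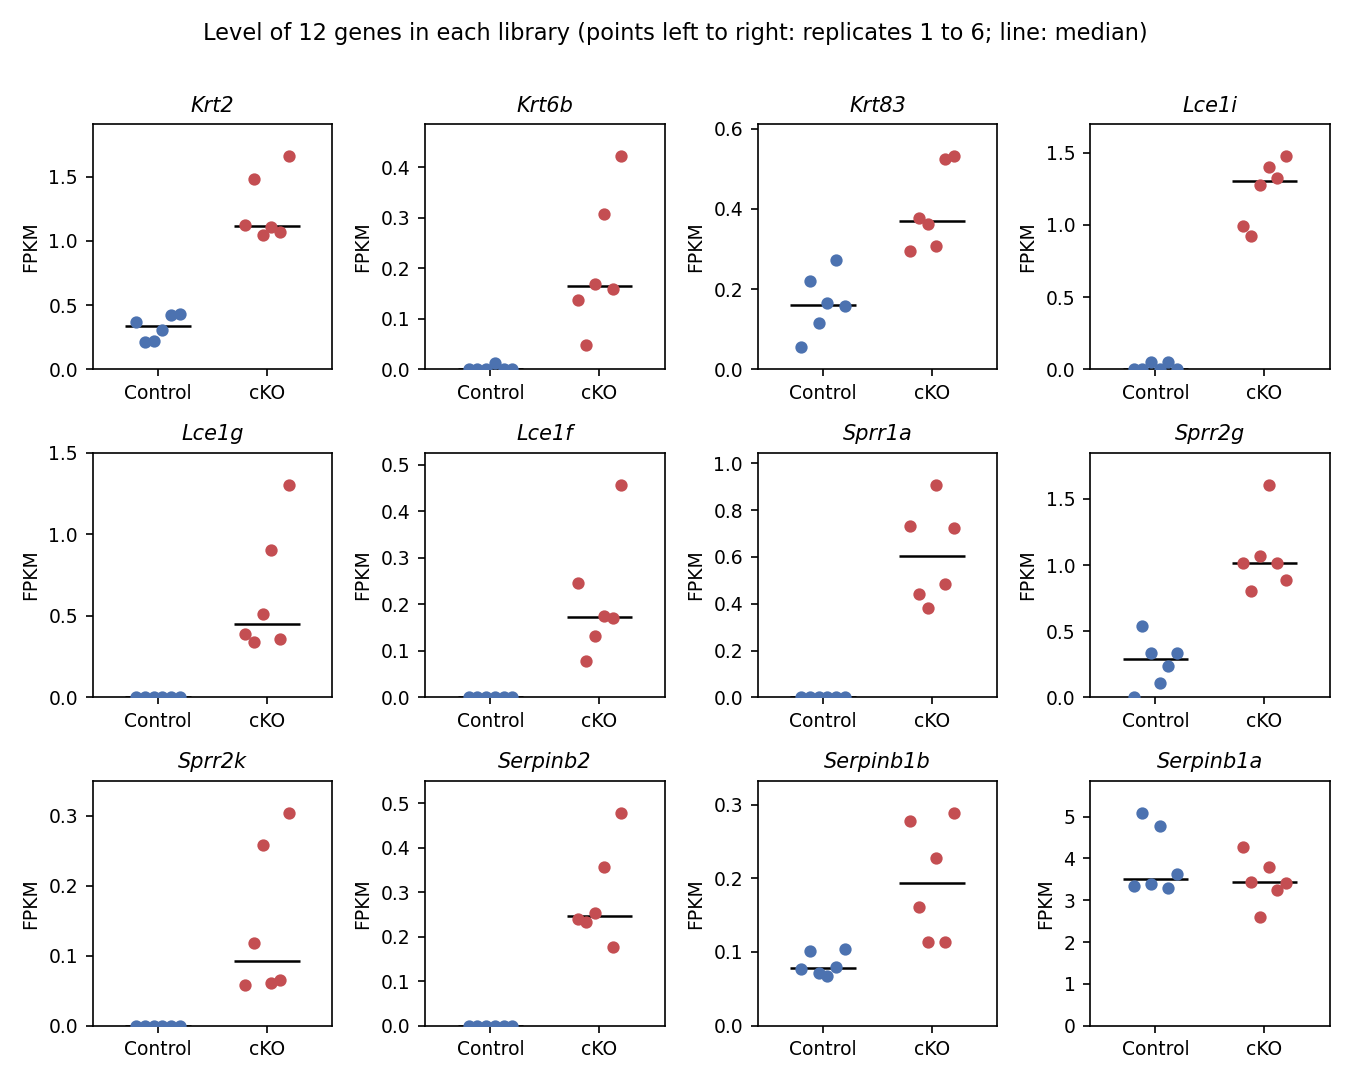
FPKM of 12 genes in each library, with points from left to right for replicates 1 to 6 of Control (blue) and cKO (red) and a line at the median. The groups are apart in all genes shown except Serpinb1a, whose groups overlap between 3.29 and 4.28 FPKM.

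Hair keratins, the sulphur-rich keratins of the hair shaft, were higher in sum for both types. Type I hair keratins summed to 0 to 0.06 FPKM in Control and 0.0726 to 0.294 FPKM in cKO libraries, and type II hair keratins to 0.103 to 0.294 FPKM and 0.395 to 0.695 FPKM. Krt83, a type II hair keratin, had 0.0548 to 0.272 FPKM with a median of 0.161 in Control and 0.294 to 0.531 FPKM with a median of 0.37 in cKO libraries, a ratio of means of 2.43. Its groups were just apart, and it passed the exact permutation test (adjusted p = 0.0141). In that test the type I hair keratins Krt32 (adjusted p = 0.0237, exact permutation) and Krt36 (adjusted p = 0.0321, exact permutation) were also higher. Krt32 was at 0.0195 FPKM in Control replicate 1, at 0.0162 FPKM in replicate 4 and at 0 in the others, against 0.018 to 0.138 FPKM in cKO libraries. Krt36 was at 0 in all Control libraries but replicates 1 (0.0196 FPKM) and 5 (0.0184 FPKM), against 0.0182 to 0.0971 FPKM in cKO. Both overlapped by a single cKO library each.

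Keratin-associated (Krtap) genes encode the matrix proteins between hair keratin filaments, and none was called. Of 51 Krtap genes, 19 had a value above 0, and their sums of 0.251 to 0.454 FPKM in Control and 0.226 to 0.744 FPKM in cKO libraries overlapped. Krtap5-1, the highest by mean, ranged from 0 to 0.242 FPKM in Control and from 0 to 0.401 FPKM in cKO libraries. A higher mean in cKO was seen in 15 of the 19, several of which were listed at 0 in all Control libraries and could only be higher.

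**Figure D4:**
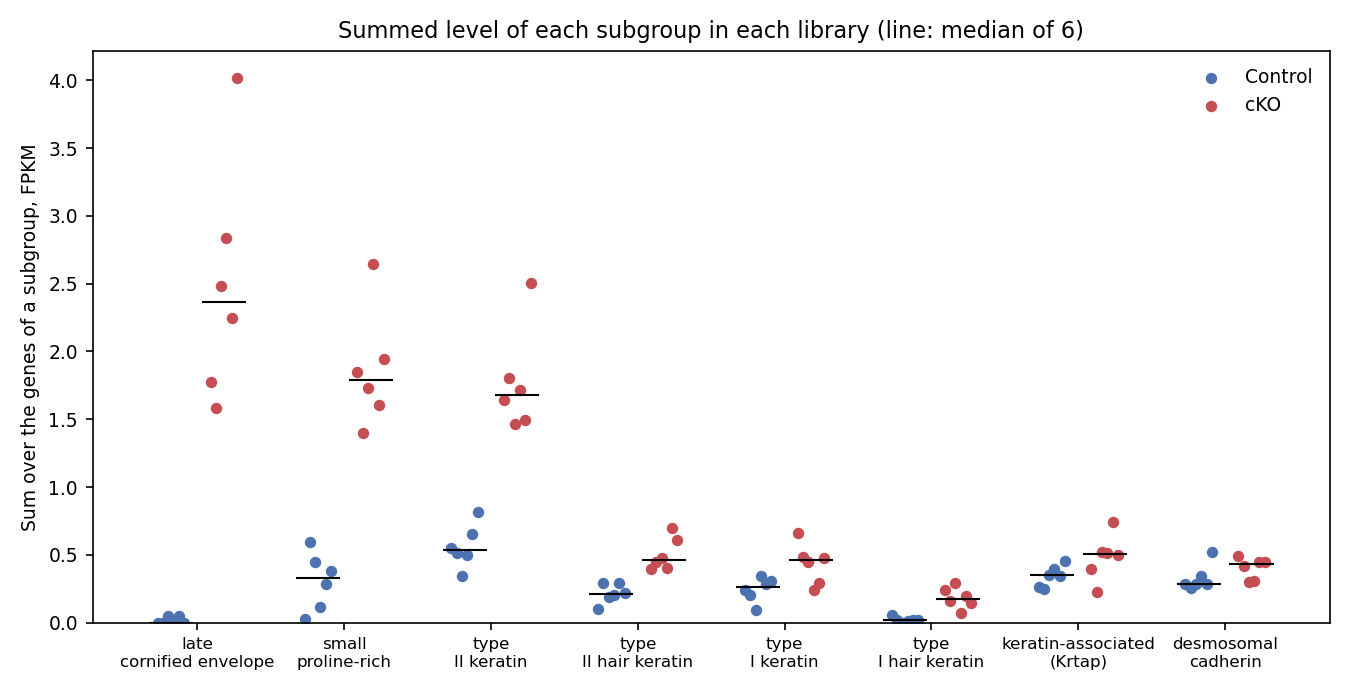
Sum of FPKM over the genes of 8 subgroups in each library, with points for the 6 Control (blue) and 6 cKO (red) libraries and a line at the median. Lce, Sprr, type II keratin and both hair keratin sums do not overlap between the groups, whereas type I keratin, Krtap and desmosomal cadherin sums do.

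Clade B serpins held both the most abundant member and one of those at 0 in all Control libraries. Serpinb1a, an inhibitor of neutrophil elastase, had 3.29 to 5.09 FPKM in Control and 2.59 to 4.28 FPKM in cKO libraries, with means of 3.92 ± 0.80 and 3.46 ± 0.56 (SD, n = 6). The groups overlapped, and the limma difference of -0.14 ± 0.11 (SE) on the log2(FPKM + 1) scale did not pass (adjusted p = 0.299). Serpinb2, plasminogen activator inhibitor 2, was listed at 0 in all Control libraries and at 0.24, 0.233, 0.254, 0.358, 0.177 and 0.479 FPKM in cKO replicates 1 to 6. These values correspond to 10.9 to 31.8 reads in every cKO library (adjusted p = 0.0141, exact permutation).

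Serpinb1b, a close paralogue of Serpinb1a, had 0.067 to 0.104 FPKM in Control and 0.114 to 0.289 FPKM in cKO libraries, a ratio of means of 2.36 (adjusted p = 0.0141, exact permutation). The groups were barely apart, and because the paralogues may share reads the value is uncertain. Without Control replicate 1, 3, 4 or 5 its adjusted p was up to 0.0542 by the exact permutation test. The third paralogue Serpinb1c did not pass (adjusted p = 0.626, exact permutation). Of 24 clade B serpins, 14 had a value above 0 and 12 of them were not called. Next to Serpinb2 on chromosome 1, Serpinb7 was at 0 in Control and at 0 to 0.0475 FPKM in cKO (adjusted p = 0.177, exact permutation). Serpinb11, Serpinb13 and Serpinb3a of the same row were listed at 0 throughout.

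Desmosomal cadherins, the adhesion molecules of the desmosome, were all above 0 and mostly not called. Dsc1, which is restricted to the upper epidermis in skin, was at 0 in Control apart from 0.007 and 0.0133 FPKM in replicates 3 and 4 and at 0.0148 to 0.0318 FPKM in cKO, from 2.01 to 4 reads (adjusted p = 0.0141, exact permutation). The widely expressed Dsg2, the highest of the 8, overlapped at 0.129 to 0.321 FPKM in Control and 0.131 to 0.241 FPKM in cKO libraries. Of 11 Spink genes 5 had a value above 0, each in a few libraries, and none was called. Krtdap, Crnn, Flg2 and Rptn were at 0 in every library.

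**Figure D5:**
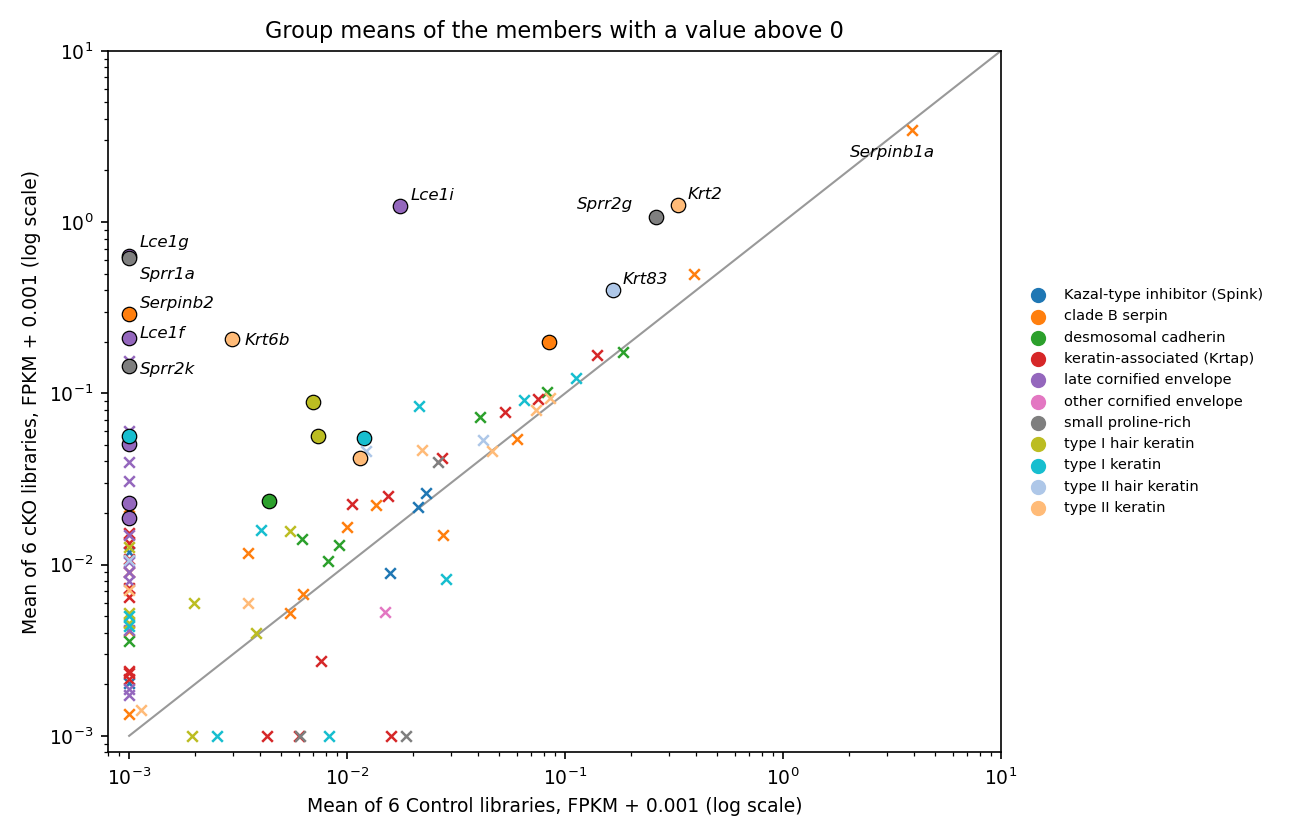
Mean FPKM + 0.001 of 6 Control (x) and 6 cKO (y) libraries on log scales for the 104 members with a value above 0, coloured by subgroup, with circles for the 20 members called by the permutation test and crosses for the others. The grey line marks equal means, and the column at the left edge holds genes listed at 0 in all Control libraries.

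Across the members, 42 of 104 were listed at 0 in all Control libraries, beside 9.74% of all genes with a value above 0. Most members were low, and 0 values are more frequent in low genes. Among genes with a mean under 0.05 FPKM, 36 of 78 members (46.2%) were at 0 in all Control libraries, beside 23.2% of genes. In all cKO libraries 8 were listed at 0, beside 3.87% of genes, namely Krt14, Krt16, Krt34, Krtap13-1, Krtap24-1, Krtap6-1, Sprr2b and Sprr3. These 8 had a mean under 0.05 FPKM, and at that level their share (10.3%) was close to that of all genes (9.42%). The sum over all members except Serpinb1a was 2.28 to 3.52 FPKM in Control and 7.55 to 12.1 FPKM in cKO libraries. Of the 20 members that were higher, 10 had their highest value in cKO replicate 6 and 4 in cKO replicate 4. Leaving out cKO replicate 6, 19 members were called, and leaving out cKO replicate 1, 22 were called.

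Summed markers of keratinocytes overlapped between the groups. Of 22 markers, 14 were in the table, and their sum was 0.966 to 3.53 FPKM in Control and 1.49 to 3.06 FPKM in cKO libraries. Most of the spread of this sum came from Dsp, at 0.153 to 2.37 FPKM in Control and 0.0877 to 1.47 FPKM in cKO. The mean of Dsp was 1.42 FPKM in Control and 0.598 FPKM in cKO. The overlap of the sums therefore does not describe the other markers. Krt14, a keratin of basal keratinocytes, was at 0 in every cKO library and at 0 to 0.0185 FPKM in Control, and Krtdap was at 0 throughout. Krt14, Krt15 and Krtdap belong both to this list and to the members. By the exact permutation test 2 of 13 markers above 0 were higher, beside 17.9% of all genes, namely stratifin (Sfn), at 0.428 to 0.558 FPKM in Control and 0.557 to 0.831 FPKM in cKO, and the envelope cross-linking enzyme Tgm1, at 0.0338 to 0.074 FPKM and 0.066 to 0.101 FPKM. Limma tested only 2 of the markers, Dsp and Sfn, and called neither. No marker was lower in either test.

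Related genes outside these families were examined by lists. Of 16 epidermal transcription factors in the table, 15 were above 0 and 4 were higher by the exact permutation test, beside 17.9% of all genes. Among them were the grainyhead factors Grhl2, at 0.017 to 0.0527 FPKM in Control and 0.0586 to 0.134 FPKM in cKO, and Grhl3, at 0.111 to 0.262 FPKM and 0.3 to 0.386 FPKM, which regulate barrier genes in epidermis. Barx2 rose from a mean of 0.303 ± 0.042 to 0.512 ± 0.163 FPKM (SD, n = 6). Cebpa fell from 3.78 ± 0.33 to 2.81 ± 0.23 FPKM (SD, n = 6), with a limma difference of -0.33 ± 0.06 (SE) on the log2(FPKM + 1) scale (adjusted p = 0.000167).

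Among 21 serpins of other clades, limma tested only 3 and called 1 of them, Serpina3m, higher and none lower. Serpina3m was at 1.44 to 2.07 FPKM in 4 cKO libraries but at 0.00375 and 0.0585 FPKM in cKO replicates 3 and 4, against 0 to 0.0221 FPKM in Control. It belongs to a family of near-identical copies and its values are uncertain. Of 13 proteases above 0 that clade B serpins can inhibit, thrombin (F2) and Prtn3 were higher by the exact permutation test, and of 9 genes of the desmosome plaque and envelope cross-linking Abca12 and Tgm1 were. Limma tested only 4 of these proteases and 3 of the desmosome and cross-linking genes and called none of them. Over all genes the permutation test called 17.9% higher. No call was made by either test among the intermediate filaments Vim, Nefm and Des. The same held for the 15 S100 and other epidermal differentiation complex genes above 0, of which limma tested 5. Among these, Crct1 was at 0 in all Control libraries and at 0 to 0.311 FPKM in cKO (adjusted p = 0.0614, exact permutation). Kprp and Hrnr were also above 0 only in cKO, at up to 0.0734 and 0.00493 FPKM. S100a4, S100a8 and S100g had a lower mean in cKO.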

How the data were processed

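Dorsal CA1 of both hemispheres was pooled for each mouse, and TruSeq libraries were prepared from its total RNA per the labels. Since strandedness is not given in the sources used, overlapping and antisense genes cannot be told apart. The authors deposited FPKM values, scaled by transcript length and depth, which are not counts although the table is named for reads. Tools listed in the submitters' notes are TopHat2 2.0.8, bedtools 2.16.2, FastQC 0.10.0 and CASAVA 1.8.2, with the mm9 build. The study's own count test on mm10 is a separate processing. The sources used here do not give the program that made the FPKM values.

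From 10383 rows 100 exact repeats were removed, and rows sharing a symbol were added up. Left out were 529 small RNA genes, 2414 genes at 0 throughout and 46 genes with 0 values beside a median of 1 FPKM or more in their values above 0. Such 0 values were tolerated in Gcg, Gm14718 and Lce1i (3 genes), decided with the values in view. A gene at 0 in all libraries of a group was also set aside by this rule if its other values had such a median. These steps left 7256 genes.

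A count model was planned only for counts, so limma 3.58.1 in R 4.3.3 was used, with trended and robust variances and no covariates, on log2(FPKM + 1) for a mean of at least 0.5 FPKM. Log2 changes on this scale understate low genes. The exact permutation test (numpy 2.4.6, pandas 2.3.3 in Python 3.11.15) took the difference of mean FPKM. P-values were adjusted by Benjamini-Hochberg over all genes tested, at 0.05. Both tools were tested on simulated data. Reads were estimated as FPKM times transcript length times a depth read from the smallest values of 1930 genes.

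The members and lists were chosen with earlier results of these data known. Values are given for members called by either test and for the highest member of a subgroup, and of related lists for up to 3 called genes in one direction and 1 in the other. Other genes are named as examples and were chosen after their values were seen. Labels give no replicate numbers, so numbers only name libraries, and p-values measure the spread between mice. The alternatives were median-ratio and upper-quartile scaling, other pseudocounts and filters, the highest row of a symbol, a log scale in the permutation test, and leaving out each library. Sequences were taken from RefSeq GRCm38.p6, a build other than that of the table, to which 157 of 167 members were matched by symbol.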

Additional observations from a re-analysis of the deposited data

Results flagged for a closer look

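A single library stood apart from the other 5 of its group in 8 of 47 groups checked by Dixon's criterion. Its chance rate of about 1 in 20 holds for normally distributed values. Many values here are 0 or rest on few reads, so that rate does not apply and the count is only a description. In the flagged groups of Krt6b and Spink4 the other libraries were at 0, which meets the criterion whenever 1 library has a value. Ivl was at 0.000164 FPKM in Control replicate 3 and at 0.0167 FPKM in cKO replicate 3, each near the level of the opposite group. Krt18 was at 0.317 FPKM in cKO replicate 1, the library with high transthyretin. Krt6b had its single Control value of 0.0117 FPKM in replicate 4, and Lce1c was at 0.0643 FPKM in cKO replicate 3. Spink4 was above 0 only in Control replicate 3 (0.132 FPKM) and cKO replicate 5 (0.15 FPKM). Sprr2g was at 1.61 FPKM in cKO replicate 4.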

How the results depend on the processing

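No paired analysis was possible because the labels give no replicate numbers that link mice of the 2 groups. Limma called 480 genes higher and 157 lower, and with median-ratio scaling 278 higher and 278 lower. The share of higher calls thus fell from 75.4% to 50% (59.6% with upper-quartile scaling), as the median log2 difference of all tested genes moved from 0.09 to 0.01. With a mean of at least 0.1 FPKM and a pseudocount of 0.1 FPKM, 974 genes were higher, and 10 of 15 members were called higher in place of 3, beside 26.8% of genes. Several of the 10, at or near 0 in Control, passed this filter only through their cKO level, so the share does not describe the members in general. Without a filter 8 members were called. In the permutation test a mean of at least 0.1 FPKM left 15 members, of which 10 were higher in place of 20, and 10 in place of 17 had all cKO above all Control libraries. Members called lower rose from 0 to 1 with median-ratio scaling (Krt25) and to 1 without Control replicate 3 (Ivl). Leaving out 1 library at a time gave 456 to 504 genes higher, 3 members higher by limma, 14 to 22 members higher and 0 to 1 lower by the permutation test, and 17 to 19 with all cKO above all Control libraries. Of the 20 members called by the permutation test, 14 were called under every alternative in which they were tested (5 of them fell under the 0.1 FPKM filter), and Krt19, Krt78, Serpinb1b, Lce1c, Lce1e and Lce1h were lost under at least 1. No called member changed sign under any of them. The causes were not tested. Most members rest on a few reads per library, which limits their precision.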
